A study of Schizosaccharomyces pombe with 4 samples.

Results

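Small nucleolar RNA (snoRNA) genes were taken as every gene with the biotype snoRNA in the Schizosaccharomyces pombe annotation, which gave 66 of 12645 annotated genes. Of these, 59 entries stand for a mature snoRNA and 7 for a longer primary transcript that contains one or more of them, and 12 of the mature genes lie inside an annotated intron of a protein-coding gene. Reads were long-read cDNA sequences of nuclear RNA, from which polyadenylated RNA and rRNA had been removed and whose 3′ ends had been ligated to an adaptor. A read was counted for a gene when at least 10 aligned nt overlapped it on its own strand, and it was called extended when either end lay more than 20 nt outside the annotated gene.

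There were 3 groups, all grown in rich YES medium from single colonies. The prp2-1 group was 1 library of strain prp2-1 (leu1.32 prp2-C387Y), grown at 26 °C and shifted to 37 °C for 2 hours. prp2 encodes the large subunit of U2AF, the factor that recognises the 3′ end of introns. The wild type 37 °C group was 1 library of strain L972 (h-) given the same shift. The wild type 30 °C group held 2 libraries of different strains: replicate 2 was SP286 (prp5::KanMx-prp5-WT, h+) and replicate 1 was L972 (h-). With 1 library in each 37 °C group, each test below sets the reads of 1 library against those of another, which says how the 2 libraries differ but not how the conditions do, and a difference could not be checked in replicates.

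snoRNAs guide the chemical modification of ribosomal RNA, and a few, among them U3, U14 and snR30, are needed for its cleavage. C/D snoRNAs carry a box C near the 5′ end and a box D near the 3′ end and guide ribose methylation, while H/ACA snoRNAs end shortly after an ACA box and guide pseudouridylation. They are cut from longer precursors, transcribed from their own promoters, from polycistronic units or as parts of introns, and the bound proteins protect the mature RNA from the exonucleases that trim the precursor. Of the 59 mature genes, 33 were C/D, 23 were H/ACA and 3 were neither. The class came from the annotation for 20 genes and otherwise from the box found at the 3′ end of the reads.

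Representative RNAs show where the boxes lie relative to the ends of the reads. All sequences below were read from RefSeq assembly ASM294v3 between the commonest 5′ and 3′ ends of the reads, unless stated otherwise, and capitals mark box C (TGATGA) and box D (CTGA) in C/D RNAs and the ACA box in H/ACA RNAs. snoU14 (II:1308638-1308746, + strand) and snoU24 (I:5369619-5369685, - strand) are C/D snoRNAs, the second one inside an intron of spt20. sno12 (III:583418-583606, + strand) and snR191 (I:2734995-2735216, - strand) are H/ACA snoRNAs, the second one inside an intron of nog2.

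snoU14: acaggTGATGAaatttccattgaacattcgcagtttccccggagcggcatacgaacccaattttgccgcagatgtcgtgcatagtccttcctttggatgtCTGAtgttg
snoU24: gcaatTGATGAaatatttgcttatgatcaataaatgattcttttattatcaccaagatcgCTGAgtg
sno12: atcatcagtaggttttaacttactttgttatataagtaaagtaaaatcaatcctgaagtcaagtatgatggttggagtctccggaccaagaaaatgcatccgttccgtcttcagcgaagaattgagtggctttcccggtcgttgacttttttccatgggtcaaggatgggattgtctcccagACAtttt
snR191: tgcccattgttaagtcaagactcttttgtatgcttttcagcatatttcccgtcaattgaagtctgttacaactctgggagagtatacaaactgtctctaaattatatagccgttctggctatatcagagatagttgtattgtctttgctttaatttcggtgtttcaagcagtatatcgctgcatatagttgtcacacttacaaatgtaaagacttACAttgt

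The 4 libraries differed in depth and in the size of the RNAs they held. They contained 33746 reads in prp2-1, 32176 in wild type at 37 °C, 45318 in wild type 30 °C replicate 2 and 123756 in wild type 30 °C replicate 1, with median aligned lengths of 758, 870, 420 and 254 nt in the same order. Reads of protein-coding genes made up 79.2%, 83.4%, 73.0% and 55.6% of these libraries, and of the gaps in aligned reads 88.7% to 94.0% matched an annotated intron. Both 37 °C libraries were sequenced in the same 6 cells, and 3769 read names occurred in both of their files. Repeats of an earlier identical alignment in the same library, with the first copy not counted, made up 74.1% to 87.3% of snoRNA reads. With RNAs of fixed ends, separate molecules and copies made by PCR cannot be told apart. prp2 itself had 4 reads in prp2-1, 7 in wild type at 37 °C, and 5 and 7 in wild type 30 °C replicates 2 and 1, too few to check the mutant label, and no read base was available to test the substitution.

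Of the 59 mature genes, 54 had at least 10 reads in all, and their 3′ ends were sharply placed. The commonest 3′ end lay within 5 nt of the annotated end in 45 of the 54, and a median over genes of 88.0% of 3′ ends fell within 2 nt of the commonest one (range 34.8% to 96.6%, 39 of 54 genes at 80% or more). By library and class, the share of 3′ ends within 2 nt was 86.5% in prp2-1, 89.0% in wild type at 37 °C, 75.4% in wild type 30 °C replicate 2 and 92.5% in replicate 1 for C/D genes. For H/ACA genes it was 74.0%, 70.8%, 92.8% and 90.1% in the same order. By these shares the ends of C/D genes were the least sharp in replicate 2 and those of H/ACA genes in the 37 °C libraries. The H/ACA genes include snR90, whose interval also holds a C/D RNA with ends of its own, as described further on. Of snR90 reads, 86 of 207 in prp2-1 and 82 of 168 in wild type at 37 °C began at that RNA. In replicates 2 and 1, 8 of 167 and 298 of 1673 did. The H/ACA shares without snR90 were not computed.

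The commonest read ends lay a few nt outside the boxes more often than the annotated ends did. Searched on the gene's own strand, CTGA was followed by 3 to 5 nt at the commonest 3′ end of 35 of 56 snoRNA genes (62.5%), against 8 of the same 56 genes (14.3%) at annotated ends and 0.710% of the annotated 3′ ends of 12540 other nuclear genes. Those 56 genes include snR10 and snR5, read on the opposite strand as described further on. Within the C/D genes, 22 had exactly 3 nt after CTGA, 11 had 5 nt and 0 had 4 nt. That every C/D gene had the box at 3 to 5 nt is no finding, since the box named the class in most of them. TGATGA, which did not enter the class, was preceded by 3 to 7 nt from the commonest 5′ end in 19 of 33 C/D genes (57.6%), against 0.112% of other genes. ACA was followed by 3 or 4 nt in 13 of 17 genes that the annotation itself calls H/ACA (76.5%), against 3.78% of other genes. By the read ends, C/D RNAs other than U3 and snoU18 were 67 to 110 nt long (median 84.0 nt) and H/ACA RNAs 102 to 413 nt (median 170 nt). The 413 nt RNA is the long form of snR101, which the annotation calls H/ACA. No ACA box was found near the 3′ end of that form, nor near that of the 159 nt RNA of snR90.

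In 7 genes the commonest 3′ end lay more than 20 nt from the annotated one: snu3, snR191, snR101, snoU24, SPNCRNA.498, snR90 and snoR61. All reads of snR191 and SPNCRNA.498 therefore count as extended, although their ends are those of the usual product. snR191 was annotated with 128 nt, while its reads ended 41 nt before that start and 53 nt after that end and spanned 222 nt. SPNCRNA.498, an H/ACA RNA within an intron of ipa1, was annotated with 100 nt and read as 204 nt. snoU24 was annotated with 47 nt, and its reads went 21 nt further, past the box D that the annotated interval lacks. The displacement of snoU24 is the one nearest to the limit, and the largest among the genes kept was that of snR51b, whose 3′ end lay 8 nt short of its annotation.

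U3, the C/D RNA that pairs with the rRNA precursor during its first cleavages, has 2 genes, snu3 and snu32, and the annotated position of snu3 did not match its reads. Reads of snu3 began 122 nt before the annotated start and ended 123 nt before the annotated end, so the RNA covered I:987693-987947 on the - strand (255 nt). That interval matched snu32 (II:3958833-3959086, - strand, 254 nt) at 233 bases with 21 mismatches and 1 gap (91.4%), while the annotated snu3 interval matched it at 150 bases with 60 mismatches and 90 gaps. Both copies are shown with the bases that differ between them in capitals, and their first 90 bases are the same.

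snu3: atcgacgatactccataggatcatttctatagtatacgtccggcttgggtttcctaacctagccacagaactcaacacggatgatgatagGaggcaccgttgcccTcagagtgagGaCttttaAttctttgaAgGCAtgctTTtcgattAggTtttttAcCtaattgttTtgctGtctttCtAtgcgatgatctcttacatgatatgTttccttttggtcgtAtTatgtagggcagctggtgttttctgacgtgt
snu32: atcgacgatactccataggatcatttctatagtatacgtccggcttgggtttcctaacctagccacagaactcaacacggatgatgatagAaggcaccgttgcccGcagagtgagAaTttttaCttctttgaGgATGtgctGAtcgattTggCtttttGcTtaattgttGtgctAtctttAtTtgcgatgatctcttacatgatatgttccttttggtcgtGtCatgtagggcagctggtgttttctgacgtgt

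Other annotated intervals held several RNAs with ends of their own. snoR61 is annotated with 653 nt, and its reads piled up as 3 separate RNAs of 81, 76 and 87 nt, counted from its 5′ side. The first (II:3874680-3874760, - strand) and the last (II:3874324-3874410, - strand) each carry box C and a box D that ends 3 nt before the 3′ end, and neither box was found in the middle one (II:3874520-3874595, - strand). snR90, annotated with 488 nt, gave a 159 nt RNA at its 5′ side and a 104 nt RNA (I:4937067-4937170, - strand) with both C/D boxes further downstream. The C/D RNAs of these intervals are printed with box C and box D in capitals.

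snoR61, first RNA: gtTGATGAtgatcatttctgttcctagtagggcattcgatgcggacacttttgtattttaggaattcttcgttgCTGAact
snoR61, middle RNA: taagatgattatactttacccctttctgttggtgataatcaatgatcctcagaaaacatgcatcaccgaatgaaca
snoR61, last RNA: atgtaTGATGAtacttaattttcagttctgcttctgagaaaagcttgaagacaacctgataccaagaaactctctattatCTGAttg
snR90, downstream RNA: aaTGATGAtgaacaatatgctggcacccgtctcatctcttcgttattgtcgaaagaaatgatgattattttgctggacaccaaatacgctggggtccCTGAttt

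The libraries differed in which of these RNAs they held. Reads with both ends within 5 nt of the last snoR61 RNA numbered 119 of 244 snoR61 reads in prp2-1, 102 of 206 in wild type at 37 °C, 2 of 168 in wild type 30 °C replicate 2 and 349 of 932 in replicate 1. In replicate 2 the commonest snoR61 read ran from the start of the middle RNA to the end of the last. Reads that began within 5 nt of the start of the downstream snR90 RNA were 86 of 207 in prp2-1, 82 of 168 in wild type at 37 °C, 8 of 167 in replicate 2 and 298 of 1673 in replicate 1. Of these, 27, 31, 6 and 274 in the same order ended within 5 nt of the end shown, and 58, 49, 2 and 24 ended around 12 nt earlier. The shorter 3′ end was thus the more common one in the 37 °C libraries, and reads with it stop before the box D shown. snR101, annotated with 273 nt, was read both as that RNA and as one of 413 nt that begins 61 nt earlier and ends 79 nt later.

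**Figure D1:**
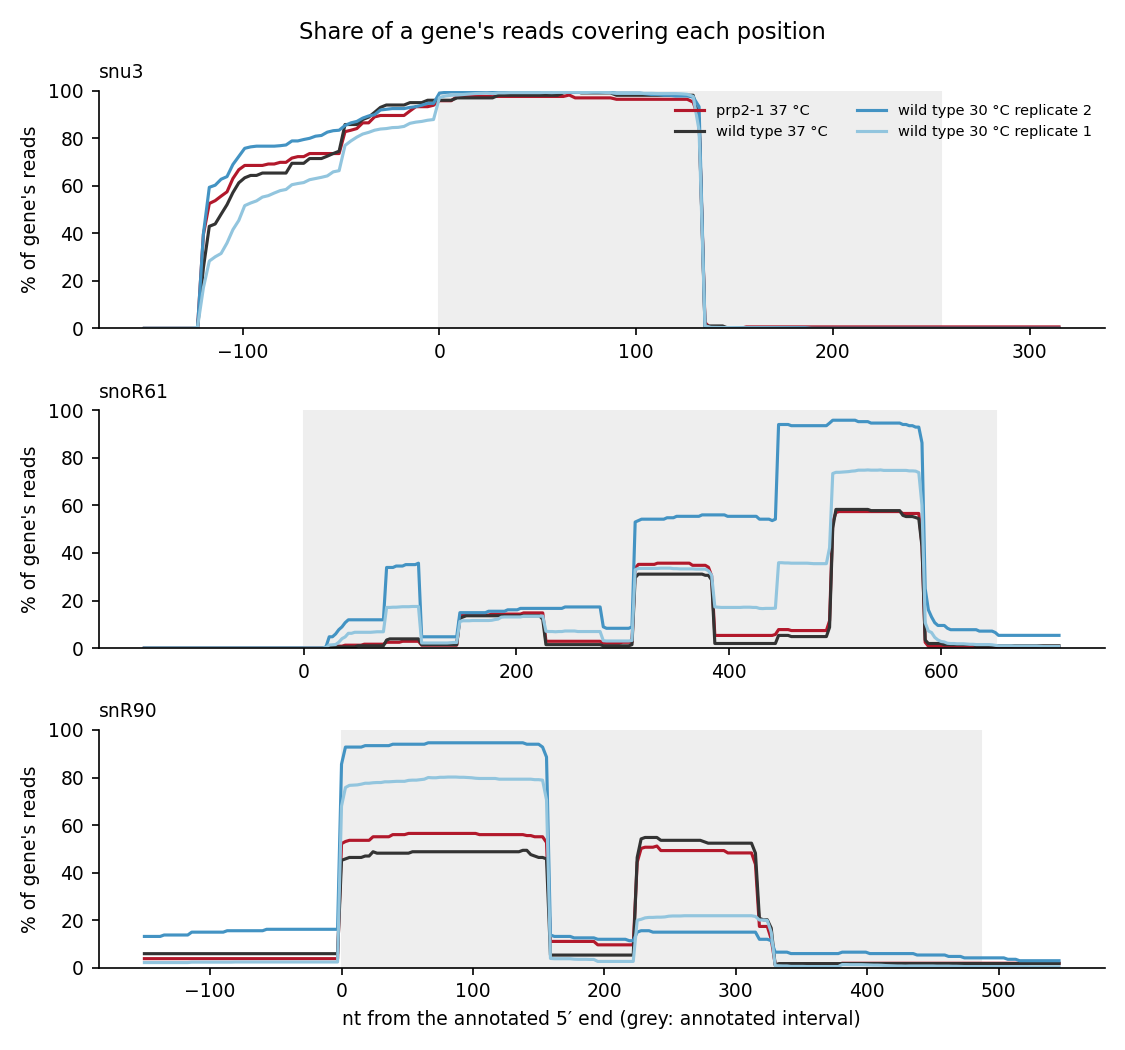
Share of each gene's reads that cover a position (y axis, %) along snu3, snoR61 and snR90 (x axis, nt from the annotated 5′ end), with 1 line per library and the annotated interval in grey. Reads of snu3 are shifted upstream of its annotation by 122 nt at the 5′ side, and those of snoR61 and snR90 fall into separate blocks, less so in wild type 30 °C replicate 2.

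snoRNAs made up 13.1% of the reads in prp2-1 (4418 reads, 95% Wilson interval 12.7 to 13.5%), 9.48% in wild type at 37 °C (3051 reads, 9.17 to 9.81%), and 13.9% and 30.3% in wild type 30 °C replicates 2 and 1 (6297 and 37523 reads). Intervals cover counting error only. The wild type 30 °C libraries averaged 22.1 ± 11.6% (SD, n = 2), so their own spread exceeded the 3.61 points (Newcombe interval 3.13 to 4.09) by which prp2-1 stood above wild type at 37 °C. Within the 6 sequencing cells that both 37 °C libraries share, the snoRNA share was 12.2 to 15.0% in prp2-1 and 8.47 to 10.8% in wild type, higher in prp2-1 in 6 of 6. Cells only split the reads of 1 library per group, so they are not replicates and add no support for a difference between conditions. With identical alignments counted once, the shares were 4.05% in prp2-1, 2.66% in wild type at 37 °C, and 4.16% and 5.98% in wild type 30 °C replicates 2 and 1.

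The classes did not follow the total. C/D RNAs other than U3 were 9.04% of reads in prp2-1, 6.77% in wild type at 37 °C, 1.41% in wild type 30 °C replicate 2 and 4.74% in replicate 1. H/ACA RNAs were 2.54%, 1.71%, 9.81% and 11.6% in the same order, and U3 0.948%, 0.612%, 1.79% and 13.3%. The snoRNA reads of the 37 °C libraries were thus mostly of short C/D RNAs, those of replicate 2 of H/ACA RNAs and those of replicate 1 of U3 and H/ACA RNAs. The H/ACA shares leave out the opposite-strand reads of snR10 and snR5, described further on. The libraries also differed in median read length, as given above, and the part of read length in these class shares was not tested.

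**Figure D2:**
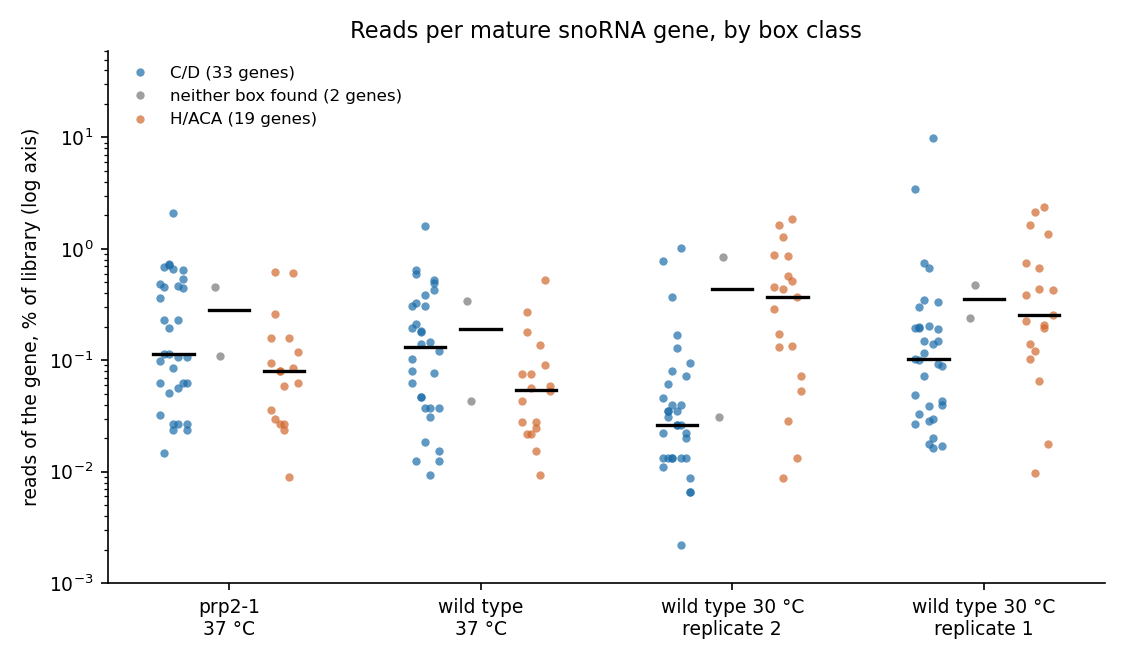
Reads per mature snoRNA gene as % of the library (y axis, log scale), 1 point per gene with at least 10 reads in all, split by library and box class, with a bar at the median of the genes drawn (genes with 0 reads in a library are not). The C/D median stands above the H/ACA median in the 37 °C libraries and below it in both wild type 30 °C libraries, and the 2 highest points of replicate 1 are the U3 genes.

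By mean share over the 4 libraries, counted on the annotated strand, the 6 most read genes were snu32, snu3, snR30, snoZ7, sno12 and snR191. Together they held 31.2% of snoRNA reads in prp2-1, 29.7% in wild type at 37 °C, 48.7% in replicate 2 and 66.5% in replicate 1. snR10 is not ranked, since nearly all of its reads lay on the opposite strand, as described further on. These numbered 98 in prp2-1, 98 in wild type at 37 °C, 1754 in replicate 2 and 1367 in replicate 1. In replicate 2 that was more than any of the 6 had. snu32 had 158 reads in prp2-1 (0.468% of the library), 99 in wild type at 37 °C (0.308%), 459 in replicate 2 (1.01%) and 12234 in replicate 1 (9.89%). In replicate 1, 63.4% of snu32 reads started 120 nt inside the RNA, and 7675 of those 7762 reads were identical to another. That start made up 3.16% of snu32 reads in prp2-1, 2.02% in wild type at 37 °C and 16.6% in replicate 2. snu32 reads with the full 5′ end were 0.296%, 0.199%, 0.607% and 1.85% of the 4 libraries, in the order prp2-1, wild type 37 °C, replicate 2 and replicate 1, and those of snu3 were 0.320%, 0.186%, 0.565% and 1.55%. Counted by full 5′ ends, the 2 copies thus lay close to each other in each library, although replicate 1 had 12234 reads of snu32 and 4232 of snu3.

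snR30, the H/ACA RNA needed for processing of the small ribosomal subunit's rRNA, was read 54 times in prp2-1 (0.160%), 44 in wild type at 37 °C (0.137%), 848 in replicate 2 (1.87%) and 2974 in replicate 1 (2.40%). snoZ7, a C/D RNA of a polycistronic unit, was instead highest in the 37 °C libraries: 713 reads in prp2-1 (2.11%), 518 in wild type at 37 °C (1.61%), 76 in replicate 2 (0.168%) and 828 in replicate 1 (0.669%). At the low end, snR96, snoR54b and snR5 had 0 reads on their annotated strand in every library. That allows up to 3 reads per library by counting error. On its annotated strand, snR97 had 1 read in all and snR10 had 4. snR10 and snR5 were read from the opposite strand, as described further on, so they are low only on the annotated one. The 7 primary-transcript entries added few reads to those of the mature RNAs in them: SPNCRNA.723, which spans snR41, snR70 and snR51b, had 256 reads in prp2-1, 212 in wild type at 37 °C, 35 in replicate 2 and 529 in replicate 1, against 256, 212, 33 and 529 reads over those 3 RNAs.

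Between prp2-1 and wild type at 37 °C, 11 of 58 snoRNA genes with at least 10 reads in both libraries together differed in read share, and all 11 were higher in prp2-1 (Fisher's exact test with Benjamini-Hochberg adjustment over 1697 genes, threshold 0.05). Of all genes tested, 4.95% passed, 3.83% higher and 1.12% lower. The median log2 ratio was 0.44 over the snoRNA genes, 0.43 over C/D, 0.42 over H/ACA and -0.07 over all genes. SPNCRNA.814 is the primary transcript of snR98 and holds the same reads, so those 2 calls are 1. With identical alignments counted once, 2 snoRNA genes passed and snoU14 was the only one shared with the 11, and with reads of repeated names left out 6 passed.

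snoU14, whose relatives guide methylation and cleavage in small-subunit rRNA, differed the most. It had 249 reads in prp2-1 (0.738%), 59 in wild type at 37 °C (0.183%), 36 in wild type 30 °C replicate 2 (0.0794%) and 434 in replicate 1 (0.351%). Its share in prp2-1 was 4.02-fold that in wild type at 37 °C (adjusted p = 1.89e-24). sno12 had 208 reads (0.616%) in prp2-1 and 88 (0.273%) in wild type at 37 °C (2.25-fold, adjusted p = 5.78e-09), and 585 (1.29%) and 2650 (2.14%) in replicates 2 and 1. snoR69b had 221 reads against 123 (1.71-fold, adjusted p = 1.39e-04) and snoZ7 713 against 518 (1.31-fold, adjusted p = 1.68e-04), all from Fisher's exact test with Benjamini-Hochberg adjustment. Both U3 genes were among the 11, with 162 reads in prp2-1 and 98 in wild type at 37 °C for snu3 (1.58-fold, adjusted p = 0.0136) and 1.52-fold for snu32 (adjusted p = 0.0299), by the same exact test. snoU18, within an intron of ero11, had 11 reads in prp2-1 and 0 in wild type at 37 °C, which allows up to 3, so its ratio was not computed.

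Wild type at 37 °C and wild type 30 °C replicate 1 carry the same strain label, and between them 37 of 61 snoRNA genes passed the same exact test, 10 higher and 27 lower at 37 °C. The 61 include primary-transcript entries that hold the reads of mature RNAs, and of the 54 mature genes alone 32 passed, 9 higher and 23 lower. Of all 2565 genes tested, 29.3% passed, 24.5% higher and 4.80% lower. H/ACA genes accounted for 17 of the 27 lower calls: of 19 tested, 17 fell and 0 rose, with a median log2 ratio of -2.70. C/D genes were split, with 8 of 33 higher, 5 lower and a median of 0.02, and the median over all genes was 0.90. snR30 fell to 0.0569 of its replicate 1 share (adjusted p = 1.29e-230) and sno12 to 0.128 (adjusted p = 2.75e-158), both by Fisher's exact test with Benjamini-Hochberg adjustment. snoR39b, by the same exact test, rose 3.49-fold (0.522% of reads in wild type at 37 °C and 0.149% in replicate 1, adjusted p = 1.29e-27) and snoZ7 rose 2.41-fold. The number was 16 when identical alignments were counted once.

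Between the 2 wild type 30 °C libraries, 44 of 61 snoRNA genes passed the same exact test, 10 higher and 34 lower in replicate 2. Of the 54 mature ones among them, 38 passed, 7 higher and 31 lower. Over all 2756 genes, 16.9% passed, 12.4% higher and 4.54% lower. Here the C/D genes moved, with 1 of 33 higher, 23 lower and a median log2 ratio of -2.0, while H/ACA genes had 5 of 19 higher, 7 lower and a median of -0.01. Both comparisons share replicate 1, and whether the medians of the classes differ between them was not tested. snR88, a C/D RNA, had 216 reads in prp2-1, 158 in wild type at 37 °C, 9 in replicate 2 and 416 in replicate 1. snR101 rose 3.69-fold in replicate 2 against replicate 1 (0.441% and 0.120%, adjusted p = 2.96e-31 by the exact test). Counting identical alignments once left 11 snoRNA genes past the test. Replicates 2 and 1 differ in strain, depth and read length, whose parts in these differences cannot be told apart.

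Extended reads are candidates for precursors, and the 7 genes with displaced 3′ ends were left out of the next counts, a choice made after seeing the data. Extended reads were then 10.6% of mature snoRNA reads in prp2-1 (388 of 3675, 95% Wilson interval 9.61 to 11.6%), 4.24% in wild type at 37 °C (105 of 2477, 3.51 to 5.11%), and 10.5% and 2.60% in wild type 30 °C replicates 2 and 1. The 30 °C libraries averaged 6.57 ± 5.61% (SD, n = 2), a spread close to the difference of 6.32 points (Newcombe interval 5.03 to 7.58) between prp2-1 and wild type at 37 °C. Taken cell by cell, over the 6 cells that held both 37 °C libraries, extended reads were 9.13 to 13.1% in prp2-1 and 2.78 to 5.73% in wild type, higher in prp2-1 in 6 of 6. Here too the cells are parts of the same libraries and not replicates. With the displaced genes kept, extended reads were 15.2% in prp2-1, 9.90% in wild type at 37 °C, and 30.7% and 18.7% in replicates 2 and 1.

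Outside introns, the excess in prp2-1 lay in C/D genes, mostly in snoU14, snoR56 and snoR69, and by odds ratio on the 5′ side. Among C/D genes outside introns, extended reads were 9.51% in prp2-1 (248 of 2609), 1.85% in wild type at 37 °C (33 of 1782), 25.9% in replicate 2 (217 of 838) and 1.92% in replicate 1 (317 of 16468). snoU14 held 139, snoR56 27 and snoR69 26 of the 248 in prp2-1, and 5, 1 and 4 of the 33 in wild type at 37 °C. The share was higher in prp2-1 than in wild type at 37 °C in 17 of 17 genes with at least 10 reads in both. For several the difference was small, as for snR41 with 2 of 233 reads against 1 of 191. Genes of 1 polycistronic unit can also share a read, so the 17 are not independent. The common odds ratio by gene was 4.03 (Mantel-Haenszel, 95% interval 2.83 to 5.73). Without snoU14 the odds ratio was 3.02 (2.04 to 4.46), and without snoR56 and snoR69 as well it was not computed. Split by end over all these C/D genes, the odds ratio was 4.17 (2.86 to 6.09) for 5′ extension and 1.32 (0.828 to 2.09) for 3′ extension. Of the 17 genes, 13 were higher in prp2-1, 2 lower and 2 equal for 5′ extension. For 3′ extension 11 were higher, 3 lower and 3 equal, so the gene counts hardly separated the sides. Genes inside introns, those with displaced ends included, had an excess on both sides. Their odds ratio of prp2-1 against wild type at 37 °C was 1.96 (1.23 to 3.13) for 5′ and 1.66 (1.06 to 2.60) for 3′ extension.

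H/ACA genes outside introns did not show that excess. Their extended reads were 7.21% in prp2-1 (39 of 541), 10.4% in wild type at 37 °C (32 of 309), 3.64% in replicate 2 and 1.98% in replicate 1. The odds ratio of prp2-1 against wild type at 37 °C was 0.701 (0.423 to 1.16), with 3 genes higher, 5 lower and 1 equal, and the ratio of the C/D to the H/ACA odds ratio was 5.74 (3.10 to 10.6). The odds ratios by class were also chosen after seeing the data. The extended share of C/D genes in prp2-1 lay between those of the 2 wild type 30 °C libraries, whose own odds ratio, replicate 2 against replicate 1, was 20.8 (15.3 to 28.3) for C/D and 2.08 (1.62 to 2.68) for H/ACA genes.

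**Figure D3:**
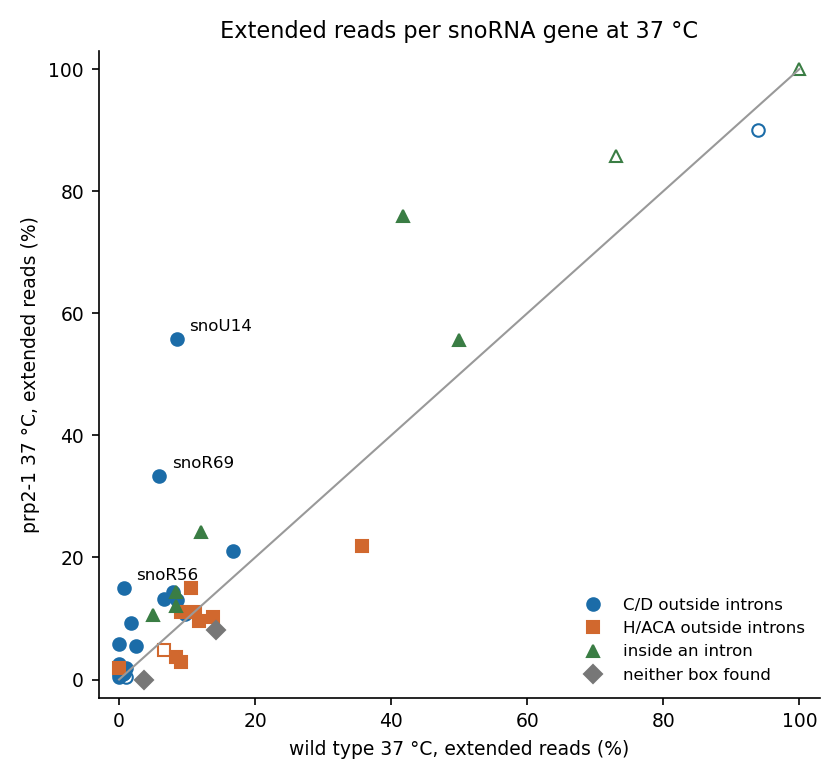
Extended reads per snoRNA gene (% of the gene's reads) in prp2-1 at 37 °C (y axis) against wild type at 37 °C (x axis), for genes with at least 10 reads in both, with equal shares on the grey line and open symbols for genes with displaced 3′ ends. All filled C/D genes outside introns lie above the line, several of them only just, led by snoU14 (55.8% against 8.47%). H/ACA genes lie on both sides.

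Gene by gene, 0 of 42 snoRNA genes passed the test of 3′ extension between prp2-1 and wild type at 37 °C (Fisher's exact test with Benjamini-Hochberg adjustment, 1 at an unadjusted p under 0.05, and 0.183% of all 547 genes called). The same exact test of 5′ extension, added after seeing the data, called 3 of 42, all higher in prp2-1, against 0.731% of all genes tested (0.548% higher). They were snoU14, snoR56 and snoR69. With identical alignments counted once none of the 3 passed, and with repeated read names left out only snoU14 did.

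snoR69 had 26 of 78 reads 5′ extended in prp2-1 (33.3%), 4 of 68 in wild type at 37 °C (5.88%), 10 of 14 in replicate 2 (71.4%) and 27 of 239 in replicate 1 (11.3%), with an adjusted p of 0.00535 between the 37 °C libraries by the exact test. Of its 67 5′ extended reads in all libraries, 63 began within 5 nt of 1 position, 94 nt upstream of the mature RNA. snoR56 had 25 of 180 in prp2-1 (13.9%) and 0 of 137 in wild type at 37 °C (adjusted p = 1.33e-04 by the exact test). Its commonest upstream start lay 98 nt before the mature RNA, with 14 reads within 5 nt of it in prp2-1, 0 in wild type at 37 °C, 1 in replicate 2 and 6 in replicate 1. Both RNAs are shown with this leader in lower case and the mature part in capitals (snoR69 at I:5387465-5387642, + strand, and snoR56 at I:5148473-5148653, - strand).

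snoR69: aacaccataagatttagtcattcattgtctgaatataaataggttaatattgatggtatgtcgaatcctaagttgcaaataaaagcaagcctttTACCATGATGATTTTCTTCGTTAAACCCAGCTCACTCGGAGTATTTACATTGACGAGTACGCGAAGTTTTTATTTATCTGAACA
snoR56: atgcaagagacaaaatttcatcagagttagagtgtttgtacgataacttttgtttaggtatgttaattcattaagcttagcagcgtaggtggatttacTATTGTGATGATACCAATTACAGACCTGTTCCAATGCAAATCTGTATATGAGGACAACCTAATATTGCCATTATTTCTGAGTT

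snoU14 had 139 of 249 reads 5′ extended in prp2-1 (55.8%, 95% Wilson interval 49.6 to 61.9%), 5 of 59 in wild type at 37 °C (8.47%, 3.67 to 18.4%), 12 of 36 in replicate 2 (33.3%) and 15 of 434 in replicate 1 (3.46%). The 37 °C libraries differed with an adjusted p of 3.62e-09 by Fisher's exact test with Benjamini-Hochberg adjustment. The share was higher in prp2-1 in 6 of 6 sequencing cells, which are parts of these libraries and not replicates. With identical alignments counted once the shares were 88 of 116 in prp2-1, 5 of 18 in wild type at 37 °C, 12 of 22 in replicate 2 and 15 of 75 in replicate 1. Upstream on the same strand lies mamRNA, an annotated long non-coding RNA that is known to bind the RNA-binding proteins Mmi1 and Mei2. In prp2-1, 90 of the 139 long reads began between 30 nt before and 10 nt after the mamRNA start at II:1307681, which lies 953 nt before snoU14. In the other libraries 1 of 5 did so in wild type at 37 °C, 4 of 12 in replicate 2 and 2 of 15 in replicate 1. Of the 139 in prp2-1, 128 were not extended at the 3′ side and 108 ended within 8 nt of the annotated 3′ end. Reads with both that start and that end numbered 70 in prp2-1, 0 in wild type at 37 °C, 2 in replicate 2 and 1 in replicate 1.

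**Figure D4:**
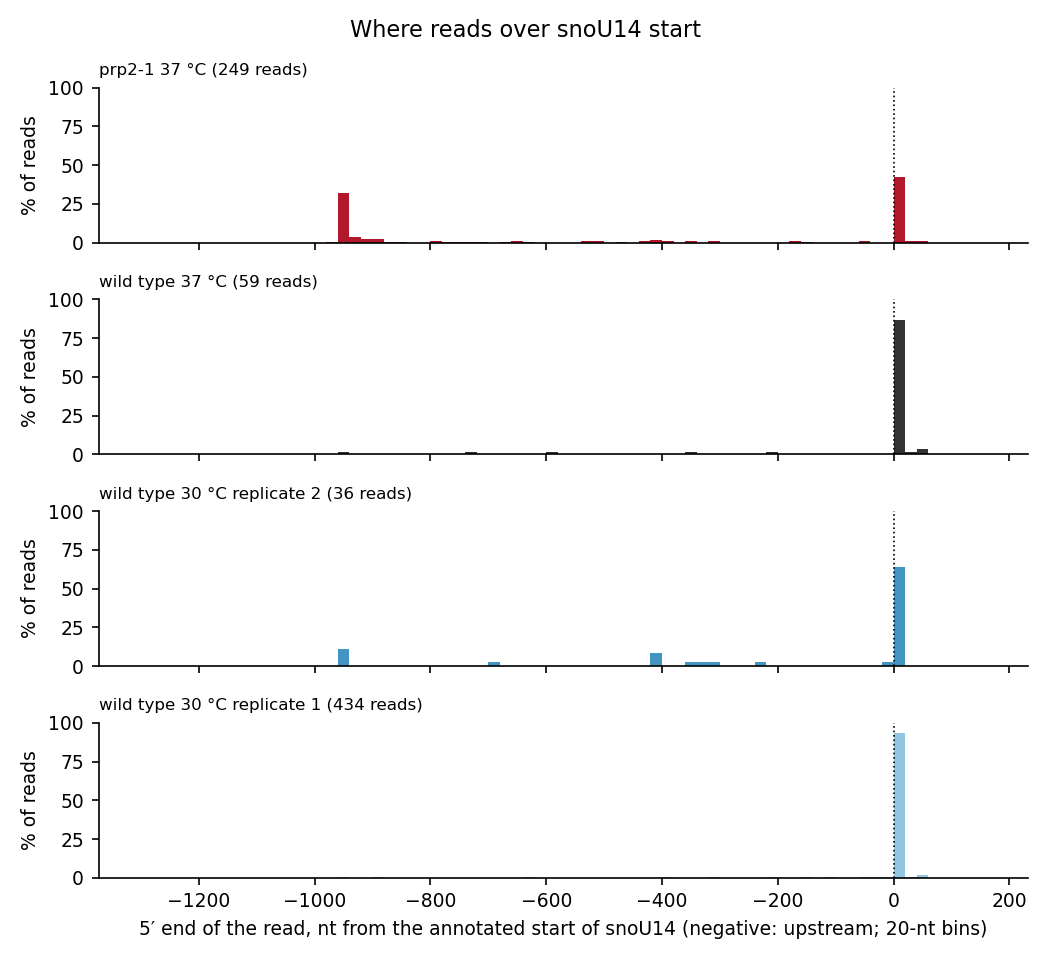
Positions at which reads over snoU14 begin (x axis, nt from its annotated start, in 20-nt bins) as % of the snoU14 reads of each library (y axis). Besides the peak at the mature start in every library, prp2-1 has a second peak 953 nt upstream, at the start of mamRNA. In wild type 30 °C replicate 2, 4 of 36 reads also begin there.

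Reads over mamRNA itself were also more numerous in prp2-1. The annotated form SPNCRNA.1715.2 (II:1307681-1308192) had 332 reads in prp2-1, 16 in wild type at 37 °C, 81 in replicate 2 and 112 in replicate 1, 19.8-fold higher in prp2-1 than in wild type at 37 °C (adjusted p = 6.27e-72 by the exact test). The longer form SPNCRNA.1715.1 had 530, 151, 119 and 767 reads (3.35-fold, adjusted p = 5.07e-44 by the exact test), and both counts include the long snoU14 reads. snoU14 reads that were not 5′ extended were 0.326% of reads in prp2-1, 0.168% in wild type at 37 °C, 0.0530% in replicate 2 and 0.339% in replicate 1. The extended ones were 0.412%, 0.0155%, 0.0265% and 0.0121%. Between the 37 °C libraries the extended reads differed 26.5-fold and the others 1.94-fold.

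Some reads that ran from mamRNA towards snoU14 lacked a stretch of 227 nt, II:1308191-1308417, that begins with GT and ends with AG and is not an annotated intron. It begins at the 3′ end of the shorter mamRNA form and overlaps that of the longer one, which ends at II:1308359. Among all reads crossing it, those with this gap were 11 of 199 in prp2-1 (5.53%, 95% Wilson interval 3.11 to 9.63%), 2 of 7 in wild type at 37 °C (28.6%, 8.22 to 64.1%), 7 of 17 in wild type 30 °C replicate 2 (41.2%, 21.6 to 64.0%) and 9 of 17 in replicate 1 (52.9%, 31.0 to 73.8%). The prp2-1 interval lay below those of both wild type 30 °C libraries, and it overlapped that of wild type at 37 °C, which rests on 7 reads. The gap was looked for after the long reads had been seen. Its borders are shown with the skipped bases in capitals (II:1308171-1308210 and II:1308398-1308437, + strand).

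Upstream border: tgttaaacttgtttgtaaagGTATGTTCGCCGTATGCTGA
Downstream border: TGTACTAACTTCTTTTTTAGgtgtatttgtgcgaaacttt

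Among the wild type libraries, more snoRNA genes passed the test of extension between the 30 °C replicates than between 37 °C and 30 °C replicate 1. In wild type at 37 °C against replicate 1, 2 of 44 snoRNA genes differed in 3′ extension (4.42% of all genes), both higher at 37 °C by the exact test. By that exact test they were snR30, with 4 of 44 reads against 13 of 2974 (adjusted p = 0.00406), and sno12, with 8 of 88 against 43 of 2650 (adjusted p = 0.00705). In 5′ extension 2 of 44 differed, both lower at 37 °C (1.87% of all genes, 0.268% lower). snr79 had 0 of 106 reads in wild type at 37 °C and 50 of 248 in replicate 1, and snoR69b had 0 of 123 and 21 of 252. In replicate 2 against replicate 1, 17 of 47 snoRNA genes were higher in 3′ extension (6.05% of all genes, 5.70% higher and 0.349% lower) and 14 of 47 in 5′ extension (2.10% of all genes). By the exact test, snoZ7 was 3′ extended in 18 of 76 reads of replicate 2 and 14 of 828 of replicate 1 (adjusted p = 4.81e-10), and snoR02 in 7 of 14 and 7 of 300 (adjusted p = 2.25e-05). sno52 was 5′ extended in 10 of 21 and 1 of 239 (adjusted p = 3.27e-09). With identical alignments counted once, 3 genes passed for 3′ and 3 for 5′ extension between the replicates, and 0 and 1 between wild type at 37 °C and replicate 1.

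Several genes had a preferred start upstream of the mature RNA, as snoR69 did. snr79 had 56 of 76 such reads within 5 nt of 215 nt upstream, of which 3 were from prp2-1, 0 from wild type at 37 °C, 17 from replicate 2 and 36 from replicate 1. snR93, an H/ACA RNA, had 37 of 41 at 468 nt upstream, sno16 had 83 of 114 at 60 nt, and snoZ30 had 38 of 63 at 309 nt. Reads of snoZ30 were extended in 3 of 9 cases in prp2-1, 1 of 4 in wild type at 37 °C, 43 of 43 in replicate 2 and 36 of 49 in replicate 1. snR40, with 34.8% of 3′ ends near the commonest one, had 2 of 5 reads extended in prp2-1, 2 of 4 in wild type at 37 °C, 16 of 16 in replicate 2 and 25 of 41 in replicate 1.

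Polycistronic precursors appeared as reads over more than 1 mature snoRNA. The unit of snoZ8, snoZ7, snoZ5, snoZ4 and snoZ3 had 11 such reads of 869 in prp2-1 (1.27%), 4 of 665 in wild type at 37 °C (0.602%), 18 of 86 in replicate 2 (20.9%) and 19 of 1387 in replicate 1 (1.37%). Reads over all 5 RNAs numbered 0, 1, 1 and 0. The unit of snR41, snR70 and snR51b had 2 of 256 in prp2-1 (0.781%), 0 of 212 in wild type at 37 °C, 8 of 33 in replicate 2 (24.2%) and 8 of 529 in replicate 1 (1.51%). In both units the share in replicate 2 lay above the Wilson intervals of the other 3 libraries, whose own intervals overlapped.

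The 12 snoRNAs inside introns are hosted by genes that include rpl701 (ribosomal protein L7, snoR39b), cpc2 (the RACK1 protein, snoU24b), nog2 (a GTPase of large-subunit assembly, snR191), gua1 (IMP dehydrogenase, snoR54), rlp7 (snoR39a), ade4 (snoR58), spt20 (snoU24), pfd1 (snoZ15), ero11 (snoU18), fta3 (snoR47), ipa1 (SPNCRNA.498) and SPAC29A4.02C (snoR38). In Saccharomyces cerevisiae, relatives of snR191, snoU24b and snoR39b also lie in introns of the corresponding host genes. Reads of these snoRNAs that reached more than 5 nt past the intron into a host exon were 139 of 455 in prp2-1 (30.5%, 95% Wilson interval 26.5 to 34.9%), 41 of 356 in wild type at 37 °C (11.5%, 8.60 to 15.3%), 76 of 1040 in replicate 2 (7.31%) and 70 of 3217 in replicate 1 (2.18%). The rest lay within the intron or at most 5 nt past it. The odds ratio by gene of prp2-1 against wild type at 37 °C was 2.74 (1.8 to 4.17). Between wild type libraries it was 2.48 (1.57 to 3.92) for 37 °C against 30 °C replicate 1. For replicate 2 against replicate 1 it was 12.1 (7.44 to 19.8). Without snR191 and SPNCRNA.498, which hold most intronic reads at 30 °C, the shares were 27.6%, 11.1%, 71.7% and 9.47%, so that replicate 2 was the highest. These odds ratios too were added after seeing the data.

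Spliced reads of the host introns were fewer in prp2-1. Among reads spanning the 12 introns, 41 of 106 were spliced in prp2-1 (38.7%, 30.0 to 48.2%), 58 of 88 in wild type at 37 °C (65.9%, 55.5 to 75.0%), 57 of 97 in replicate 2 (58.8%, 48.8 to 68.0%) and 194 of 222 in replicate 1 (87.4%, 82.4 to 91.1%). The odds ratio by gene of prp2-1 against wild type at 37 °C was 0.315 (0.166 to 0.597), and that of replicate 2 against replicate 1 was 0.182 (0.0943 to 0.350). That of wild type at 37 °C against replicate 1 was 0.237 (0.119 to 0.470). For gua1, host of snoR54, 7 of 24 reads were spliced in prp2-1, 12 of 16 in wild type at 37 °C, 16 of 22 in replicate 2 and 19 of 20 in replicate 1. For SPAC29A4.02C, host of snoR38, they were 11 of 26, 12 of 14, 9 of 12 and 14 of 17, and snoR38 itself rose 3.43-fold in prp2-1 (36 and 10 reads, adjusted p = 0.0118 by the exact test). For rpl701 they were 11 of 24, 13 of 25, 19 of 40 and 99 of 106.

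**Figure D5:**
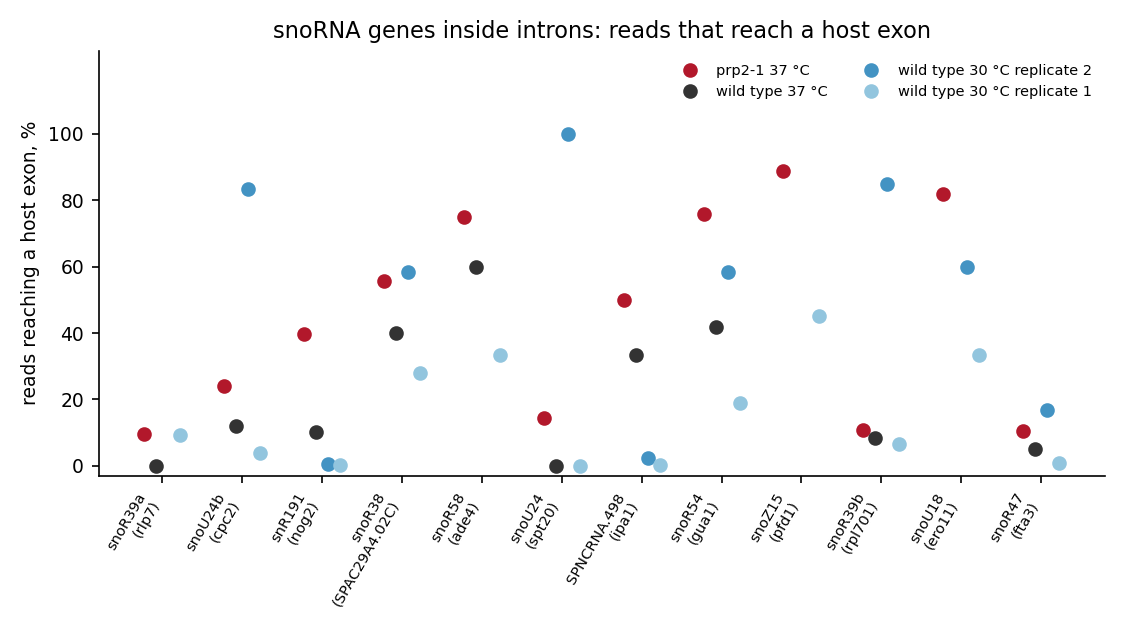
Share of reads over each intron-hosted snoRNA that reach an exon of its host (y axis, %), for the 12 snoRNAs with their hosts in parentheses and 1 point per library with at least 5 reads. prp2-1 lies above wild type at 37 °C in every pair drawn, and wild type 30 °C replicate 2 is high for several hosts.

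Genes of snoRNP proteins and of precursor processing gave little signal. Of 22 listed names, 20 were found, and 8 had enough reads between prp2-1 and wild type at 37 °C, of which 0 passed Fisher's exact test with Benjamini-Hochberg adjustment over all genes. nop56, a core protein of C/D particles, had 60 reads in prp2-1, 65 in wild type at 37 °C, 55 in replicate 2 and 97 in replicate 1. Wild type at 37 °C against replicate 1 had 3 of 14 higher and 0 lower, where 24.5% of all genes tested were higher: nop56 (2.58-fold, adjusted p = 4.89e-07), cbf5, the pseudouridine synthase of H/ACA particles (1.85-fold, adjusted p = 0.0380), and naf1, an H/ACA assembly factor with 6 and 4 reads (5.77-fold, adjusted p = 0.0315), all by the exact test. Between replicates 2 and 1, 0 of 16 passed.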

How the data were processed

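The deposited files list 1 aligned read per line in 12-column BED form, with coordinates in the columns checked here and a score that was the same in every deposited line and was not used. Per the labels' protocols, nuclear RNA was freed of polyadenylated RNA and rRNA, ligated to a 3′ adaptor, copied by template switching, amplified and sequenced on a Pacific Biosciences instrument. cutadapt 1.8 is named in the submitters' processing notes, and the aligner, genome build and read filters are not given in the sources used here. Genes and sequences came from RefSeq ASM294v3, and 88.7% to 94.0% of alignment gaps matched its introns exactly.

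Reads were counted in Python 3.11.15 with pandas 2.3.3 and numpy 2.4.6. Tests were made in scipy 1.17.1, sequences were compared with biopython 1.88, and figures were drawn with matplotlib 3.10.9. Gaps under 20 nt were ignored. Fisher's exact test (two-sided) was run per gene over all annotated genes, with at least 10 reads in both libraries together for read share and in each library for extension, and Benjamini-Hochberg adjustment at 0.05. The statistics were tested on simulated data in which each read was drawn independently. Those data held no copied reads and no spread between libraries, so they cannot show how the calls fare with either. Nothing states that the 2 wild type 30 °C cultures differ only as replicates, and they carry different strain labels.

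Genes named are the 6 with the highest mean share, the 5 most 3′ extended and the 5 most 5′ extended with at least 20 reads, all intronic ones, up to 4 with the lowest adjusted p per comparison, U3, U14 and prp2. Genes with displaced ends, several RNAs, upstream starts or opposite-strand reads were named after their values were seen. The members and lists were chosen with earlier results of these data known. Depth ranged from 32176 to 123756 reads, and intervals are Wilson, Newcombe or Mantel-Haenszel at 95%.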

Additional observations from a re-analysis of the deposited data

Results flagged for a closer look

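2 H/ACA genes with almost no reads on their annotated strand were read from the opposite strand, and these reads count for no snoRNA gene in the read shares and extension shares above. The counts of boxes at read ends do use their ends. snR10 (annotated on the + strand of chromosome III) had 98 opposite-strand reads in prp2-1, 98 in wild type at 37 °C, 1754 in wild type 30 °C replicate 2 and 1367 in replicate 1. snR5 had 14, 10, 18 and 128 in the same order of libraries. Among the other 57 mature snoRNA genes the highest count was 10, for snR96, with 0 in prp2-1, 3 in wild type at 37 °C, 1 in replicate 2 and 6 in replicate 1. The next was 9, for sno16, and 18 genes had 0. The commonest ends of the opposite-strand reads of snR10 and snR5 lay within 2 nt of the annotated ends, and ACA was followed by 4 nt at their 3′ end in both. snR10 and snR5 are known in Saccharomyces cerevisiae as guides of pseudouridylation. Both RNAs are shown as read, with the ACA box in capitals (snR10 at III:992435-992604, - strand, and snR5 at II:2266026-2266169, - strand).

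snR10: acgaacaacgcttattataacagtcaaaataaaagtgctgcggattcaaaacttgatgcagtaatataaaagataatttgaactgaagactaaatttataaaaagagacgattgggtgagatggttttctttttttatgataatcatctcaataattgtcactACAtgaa
snR5: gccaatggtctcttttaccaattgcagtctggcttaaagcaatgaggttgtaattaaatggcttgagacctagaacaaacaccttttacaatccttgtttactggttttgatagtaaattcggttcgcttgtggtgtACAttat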

How the results depend on the processing

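Of 123 recomputed values, 61 stayed within their limits, 62 moved and 0 reversed. No paired analysis was possible because each 37 °C group has 1 library and shares no pair of replicate numbers with another group. Values are given for prp2-1, wild type 37 °C, wild type 30 °C replicate 2, replicate 1 and, where it moved, the 30 °C mean. The snoRNA share of reads was 4.05, 2.66, 4.16, 5.98 and 5.07% with identical alignments counted once. It was 11.6, 8.20, 13.0 and 27.6% for reads over 50% of the gene, and 16.5, 11.4, 19.0, 54.5 and 36.8% against reads of protein-coding genes. Without repeated names it was 10.7 and 7.63% at 37 °C, and without the most read gene it was 12.7% in prp2-1, 13.0% in replicate 2 and 22.7% in replicate 1. The extended share was 37.6, 25.9, 42.7, 27.6 and 35.2% with identical alignments once, 14.1, 8.43, 29.5 and 16.0% for ends over 50 nt outside, and 11.1, 8.33, 41.7 and 9.56% as the median over genes. Without displaced genes it was 10.6, 4.24, 10.5, 2.60 and 6.57%. Without repeated names it was 17.8 and 11.6% at 37 °C. For replicates 2 and 1 it was 17.6 and 13.5% (mean 15.5%) without overlapping genes and 33.1 and 27.7% without the most read gene, and 19.1% in replicate 1 for ends over 10 nt outside. With identical alignments once, calls between prp2-1 and wild type at 37 °C numbered 2 for read share and 0 for 5′ extension. Between wild type at 37 °C and replicate 1 they numbered 16 for read share, 0 for 3′ and 1 for 5′ extension, and between replicates 2 and 1 they numbered 11, 3 and 3. Without repeated names, the prp2-1 calls were 6 for read share and 1 for 5′ extension. With a minimum of 20 reads, calls between replicates were 10 for 3′ and 8 for 5′ extension. Counting alignments once leaves fewer reads to test, and otherwise the cause was not tested. The odds ratios by class and of host exons kept their direction under each alternative run.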

Other observations

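Some reads of intron-hosted snoRNAs began within 3 nt of the first base of the host intron and ended inside that intron, so they spanned the intron's 5′ part and the snoRNA. There were 1 in prp2-1, 1 in wild type at 37 °C, 8 in wild type 30 °C replicate 2 and 30 in replicate 1. snoR39a, within an intron of rlp7, held 14 of the 30, out of its 53 reads in replicate 1. snoR39b, hosted by rpl701, had 5 of them in replicate 1 and 2 in replicate 2.

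Long 3′ extensions were rare in every library. Leaving out the genes with displaced 3′ ends, reads that ended over 500 nt past the annotated end numbered 58 of 3675 in prp2-1, 30 of 2477 in wild type at 37 °C, 46 of 4451 in replicate 2 and 37 of 27951 in replicate 1. These counts include genes inside introns. C/D genes held 50, 24, 36 and 24 of them in the same order, but C/D genes outside introns only 6, 9, 24 and 14, so prp2-1 was not the higher 37 °C library there. Among 3′ extended reads of all genes without displaced 3′ ends, the median end lay 393 nt past the annotation in prp2-1, 337 nt in wild type at 37 °C, 200 nt in replicate 2 and 147 nt in replicate 1. For C/D genes outside introns it was 195, 356, 237 and 132 nt.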
